A study of Rattus norvegicus with 11 samples.

Results

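The platelet-derived growth factor (PDGF) family of the rat was described here through the genes of its 4 ligands (Pdgfa, Pdgfb, Pdgfc and Pdgfd) and its 2 receptors (Pdgfra and Pdgfrb). These 6 genes were picked by name among 25275 gene rows, and all 6 passed the filter on low counts. The family was taken up because Pdgfc stood among the genes of smallest p in an earlier look at the same rats. The difference of Pdgfc between the groups is therefore given as a description, without a p, and nothing is read from how many of the 6 genes differed.

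PDGF ligands are secreted as linked pairs of chains that bring their receptors together at the cell surface and switch on the receptors' tyrosine kinases. The A and B chains are cut to their active form inside the cell, whereas the C and D chains leave the cell in a latent form and are activated outside it by proteases. The alpha receptor binds the A, B and C chains and the beta receptor binds the B and D chains. In mouse fat the alpha receptor is known as a mark of fibroblasts and fat cell progenitors, and the beta receptor as a mark of the mural cells that wrap small vessels. The B chain, made by endothelium, recruits those mural cells, and the C chain made by macrophages has been linked in mice to lipid storage.

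RNA was sequenced from the retroperitoneal white fat of 11 wild-type female Wistar rats, 1 library per rat. In 5 rats (degarelix plus FSH) pumps delivered follicle-stimulating hormone at 6 µg per kg per day, and in 6 rats (degarelix only) the pumps held vehicle. All 11 rats had spent 6 weeks on a western diet from 10 weeks of age, had then lost their ovaries to surgery, and received degarelix, a drug that blocks the pituitary receptor for gonadotropin-releasing hormone and so lowers the release of luteinizing hormone and FSH. Food was limited for 12 days and free for 7 days, and the rats, by then 19 weeks old, were fasted for 4 h before tissue was taken. No rat with ovaries or without degarelix was part of the comparison, which asks what FSH does to fat once ovarian hormones and the animals' own gonadotropins are low.

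Libraries held 13163021 to 23694602 counts. Levels are given in CPM, counts scaled to the library total with TMM factors, and the 6 genes cannot be ranked against each other by CPM because transcript length was not accounted for. Fat cell markers were abundant in every library, for example Adipoq, the adiponectin gene, at 10244 to 14580 CPM with FSH and 9739 to 11895 CPM with degarelix only. FSH replicate 3 stood apart, with 8086 CPM summed over Schwann cell markers against 96.4 to 122.7 CPM in the other FSH rats and 78.1 to 158.3 CPM in the degarelix only rats. Values without that rat are given beside each difference of a family member. The tissue was sequenced whole, so that fewer cells of a type and less RNA per cell cannot be told apart.

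The family did not move as a block. Pdgfc was lower in every FSH rat than in any degarelix only rat. Pdgfb and Pdgfrb averaged somewhat higher with FSH without passing the test over all genes. The difference of Pdgfrb was smaller than the SD of the degarelix only rats. Pdgfa, Pdgfd and Pdgfra differed by less than the spread between rats. In edgeR's quasi-likelihood test with Benjamini-Hochberg adjustment, 2.27% of the 12846 genes tested were called, 1.21% higher and 1.07% lower, and 1 of the 6 members was among them. That member is Pdgfc, whose difference chose the family, so nothing is read from this count. Over all genes 292 were called, and 30 to 551 with 1 rat left out. The median log2 change of the 6 members was -0.0019, beside 0.0081 for all genes.

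**Figure D1:**
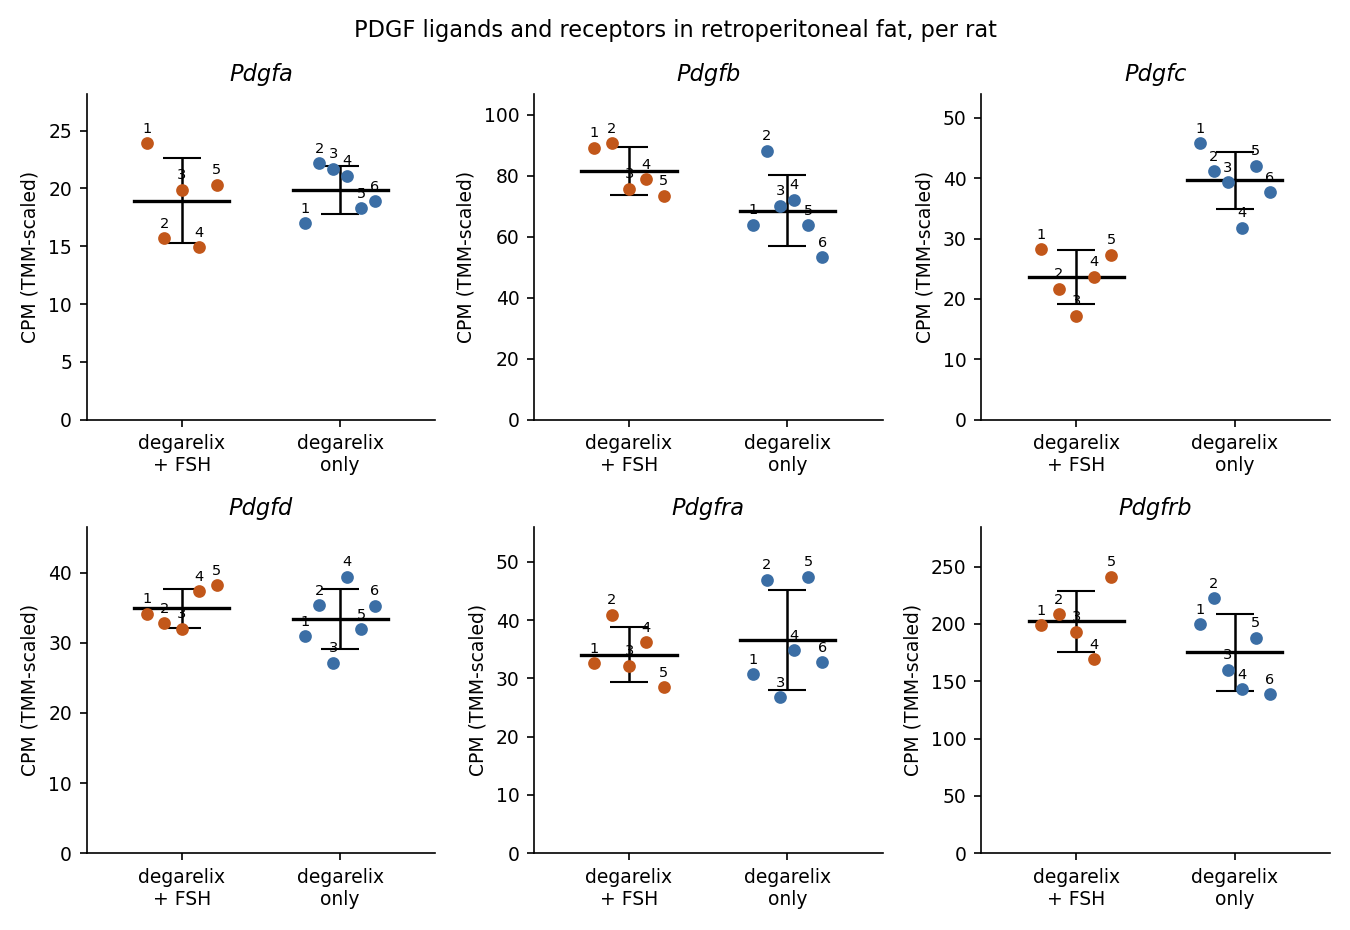
Level of each PDGF gene in CPM (y axis, from 0) in each rat of the degarelix plus FSH group (5 points) and the degarelix only group (6 points), numbered by replicate; the wide bar is the mean and the whisker the SD. The groups are separate for Pdgfc, with FSH rats at 17.2 to 28.2 CPM and degarelix only rats at 31.8 to 45.8 CPM, and overlap for the other genes.

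Among the ligands, Pdgfc (ENSRNOG00000010695) encodes the latent C chain. It had 28.2, 21.7, 17.2, 23.7 and 27.3 CPM in FSH replicates 1 to 5, against 45.8, 41.2, 39.3, 31.8, 42.0 and 37.7 CPM in degarelix only replicates 1 to 6. The highest FSH rat lay 3.61 CPM below the lowest degarelix only rat, beside 4.34% of all genes tested whose groups do not overlap, 2.54% higher and 1.8% lower with FSH. Pdgfc averaged 23.6 ± 4.46 CPM with FSH (SD, n = 5) and 39.6 ± 4.71 CPM with degarelix only (SD, n = 6), a log2 change of -0.74 ± 0.13 (SE), or 0.598 times the degarelix only level. The raw counts behind these levels ran from 232 to 974, where counting error alone is at most 6.57% of a value. The FSH rat with the lowest value, replicate 3, was the rat with the high Schwann cell markers. Without it the log2 change was -0.65 ± 0.11.

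Pdgfb (ENSRNOG00000017197) encodes the B chain, which binds either receptor. It had 89.2, 90.6, 75.7, 78.9 and 73.4 CPM in FSH replicates 1 to 5, against 64.0, 88.2, 70.1, 72.1, 63.8 and 53.3 CPM in degarelix only replicates 1 to 6. All 5 FSH rats lay above the degarelix only mean, but degarelix only replicate 2 lay above 3 of them. The means were 81.6 ± 7.88 CPM with FSH (SD, n = 5) and 68.6 ± 11.6 CPM with degarelix only (SD, n = 6). The log2 change of 0.25 ± 0.11 had a 95% interval from 0.0062 to 0.49 before adjustment and did not pass over all genes (adjusted p = 0.211 in edgeR's quasi-likelihood test; 0.28 ± 0.12 and adjusted p = 0.235 without FSH replicate 3).

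Pdgfa (ENSRNOG00000001312), the A chain, which binds the alpha receptor, had 23.9, 15.7, 19.9, 14.9 and 20.3 CPM in FSH replicates 1 to 5 and 17.0, 22.2, 21.7, 21.1, 18.3 and 18.9 CPM in degarelix only replicates 1 to 6. The FSH rats held both the highest value of the 11, in replicate 1, and the 2 lowest, in replicates 2 and 4. Its log2 change was -0.07 ± 0.12 (95% interval -0.34 to 0.20, adjusted p = 0.777; -0.09 ± 0.14 without FSH replicate 3, and 0.0056 without FSH replicate 4).

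Pdgfd (ENSRNOG00000029148), the latent D chain, had 34.2, 32.8, 32.01, 37.3 and 38.2 CPM in FSH replicates 1 to 5 and 31.0, 35.4, 27.2, 39.4, 31.95 and 35.3 CPM in degarelix only replicates 1 to 6. Every FSH rat lay within the range of the degarelix only rats. The log2 change was 0.07 ± 0.09 (95% interval -0.13 to 0.26, adjusted p = 0.703; 0.09 ± 0.10 without FSH replicate 3). Whether the changes of Pdgfc and Pdgfd, the latent chains, differ from each other was not tested.

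Of the receptors, Pdgfra (ENSRNOG00000002244) had 32.6, 40.9, 32.2, 36.2 and 28.4 CPM in FSH replicates 1 to 5 and 30.7, 46.95, 26.7, 34.9, 47.4 and 32.8 CPM in degarelix only replicates 1 to 6. The degarelix only rats spread most for this gene, with a coefficient of variation of 23.7%, and 2 of them, replicates 2 and 5, lay above every FSH rat. Its log2 change was -0.10 ± 0.15 (95% interval -0.44 to 0.23, adjusted p = 0.724; -0.08 ± 0.17 without FSH replicate 3).

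Pdgfrb (ENSRNOG00000018461) had 199, 208, 193, 169 and 241 CPM in FSH replicates 1 to 5 and 199.6, 222, 160.1, 143, 188 and 139 CPM in degarelix only replicates 1 to 6. FSH replicate 5 held the highest value and 4 of 5 FSH rats lay above the degarelix only mean, with wide overlap. The means were 202 ± 26.2 CPM with FSH (SD, n = 5) and 175 ± 33.4 CPM with degarelix only (SD, n = 6). The log2 change was 0.21 ± 0.13 (95% interval -0.08 to 0.49, adjusted p = 0.369; 0.22 ± 0.14 and adjusted p = 0.411 without FSH replicate 3). For the 5 members other than Pdgfc, an adjusted p over the threshold does not show that the level was the same in both groups, and the intervals give the sizes that remain possible.

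**Figure D2:**
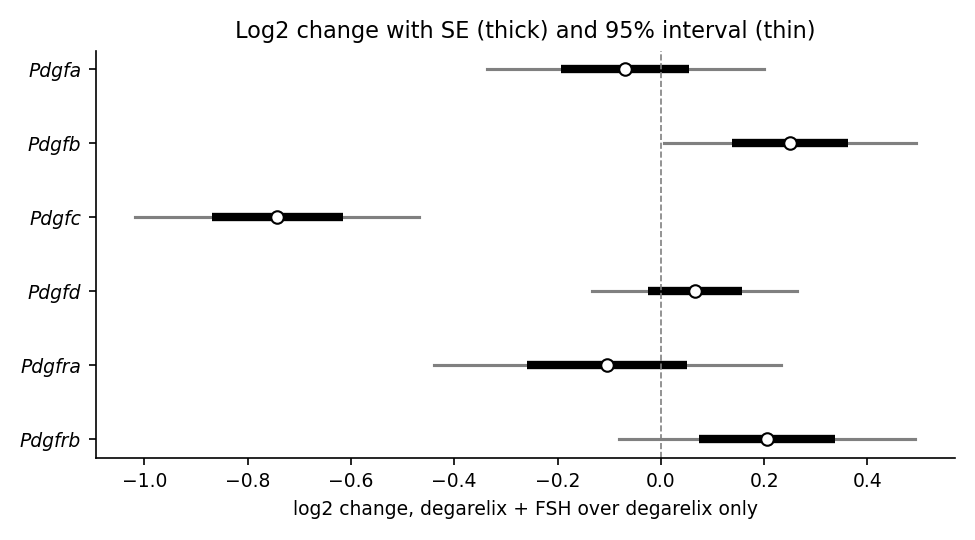
Log2 change of each PDGF gene in degarelix plus FSH over degarelix only (x axis; points), with its SE (thick bar) and unadjusted 95% interval (thin bar) from the fit over all genes. The interval of Pdgfc runs from -1.02 to -0.47, and those of the other genes lie between -0.44 and 0.49. Pdgfc was chosen for this difference, which its interval does not allow for, so the interval is a description and not a test.

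The spread between rats differed among the members. Within the FSH group the coefficient of variation of CPM was 19.5% for Pdgfa and 18.9% for Pdgfc, against 7.88% for Pdgfd and 9.66% for Pdgfb. Within the degarelix only group it was lowest for Pdgfa at 10.6% and Pdgfc at 11.9%, and highest for Pdgfra at 23.7% and Pdgfrb at 19.0%. The smallest raw count of any member was 232, so counting error was below these spreads for every gene.

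Ratios of raw counts within a library do not depend on library scaling. They were computed to set Pdgfc against its relatives. The ratio of Pdgfc to Pdgfd counts was 0.826, 0.662, 0.538, 0.634 and 0.715 in FSH replicates 1 to 5 and 1.48, 1.16, 1.45, 0.807, 1.32 and 1.07 in degarelix only replicates 1 to 6. In 4 of 5 FSH rats it lay below every degarelix only rat, the exception being FSH replicate 1 beside degarelix only replicate 4. The ratio of Pdgfc to Pdgfa averaged 1.27 ± 0.270 with FSH (SD, n = 5) and 2.03 ± 0.417 with degarelix only (SD, n = 6), and 4 of 5 FSH rats, all but replicate 4, lay below every degarelix only rat. The ratio of Pdgfc to Pdgfra, a receptor that its product binds, averaged 0.710 ± 0.195 with FSH (SD, n = 5) and 1.13 ± 0.289 with degarelix only (SD, n = 6), and 4 of 5 FSH rats, all but replicate 5, lay below every degarelix only rat. These ratios carry the difference that chose Pdgfc and are no further support for it.

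The balance of the receptors overlapped between the groups. The ratio of Pdgfra to Pdgfrb counts was 0.164, 0.196, 0.167, 0.214 and 0.118 in FSH replicates 1 to 5 and 0.154, 0.211, 0.167, 0.243, 0.252 and 0.237 in degarelix only replicates 1 to 6. The ratio of Pdgfb to Pdgfrb, the vessel ligand and its receptor, averaged 0.409 ± 0.0647 with FSH (SD, n = 5) and 0.397 ± 0.0668 with degarelix only (SD, n = 6). The means of this ratio differed by less than its spread, which was 0.304 to 0.467 in FSH rats and 0.320 to 0.503 in degarelix only rats.

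**Figure D3:**
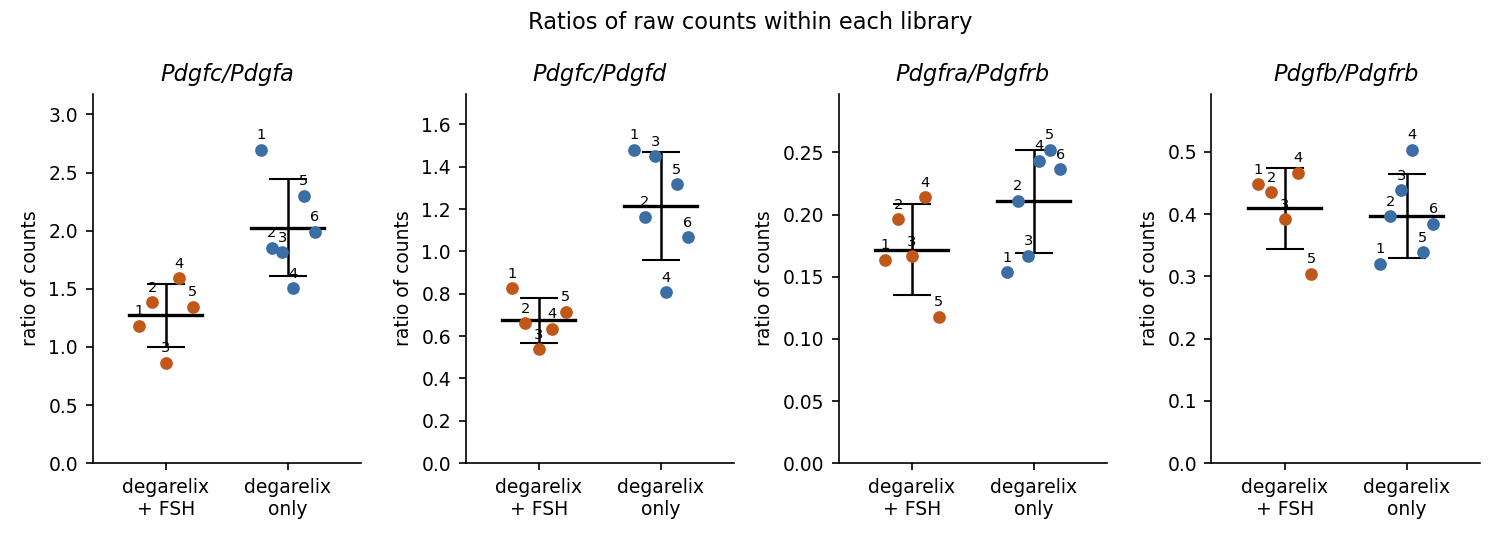
Ratio of raw counts of gene pairs (y axes, from 0) in each rat, degarelix plus FSH on the left and degarelix only on the right, numbered by replicate, with mean and SD. Pdgfc over Pdgfa and Pdgfc over Pdgfd are lower in 4 of 5 FSH rats than in any degarelix only rat, whereas Pdgfra over Pdgfrb and Pdgfb over Pdgfrb overlap.

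Beyond the family, 91 genes in 5 lists were followed from ligand activation to early response, of which 86 were tested. The test over all genes called 1 higher and 1 lower, 2.33% beside 2.27% of all genes, and 15 (17.4%) had an unadjusted p under 0.05 beside 22.6% of all genes. These shares lie near or below the background. The lists were chosen with earlier results of these data known, so nothing about the pathway is read from these counts.

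Proteins that mature, bind or present the ligands had 1 gene higher and 0 lower of 14 tested, and their log2 changes had a median of -0.12 (ranging, by which rat was left out, from -0.17 without FSH replicate 4 to -0.062 without FSH replicate 5). The gene that rose was Plaur (ENSRNOG00000037931), the cell surface receptor of urokinase, a protease able to activate the D chain. It had 33.1, 32.6, 33.8, 33.2 and 36.4 CPM in FSH replicates 1 to 5 and 20.1, 24.1, 23.7, 27.6, 17.6 and 24.2 CPM in degarelix only replicates 1 to 6. The groups did not overlap, and the FSH rats were tightly placed. The log2 change was 0.56 ± 0.10 (higher in 5 of 5 FSH rats, adjusted p = 0.0233 in edgeR's quasi-likelihood test; over all alternatives 5.44e-05 to 0.103), and the call ended without FSH replicates 1 (0.0598), 2 (0.0622) or 5 (0.0656) or degarelix only replicates 1 (0.0540) or 6 (0.0505).

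The urokinase gene Plau itself (19.3 ± 6.86 CPM with FSH and 20.4 ± 6.33 CPM with degarelix only, log2 change -0.09 ± 0.26) and Plat, the tissue plasminogen activator that cleaves the latent C chain (84.8 ± 20.9 CPM with FSH and 73.2 ± 26.3 CPM with degarelix only, log2 change 0.21 ± 0.26), differed by less than their spread (SD, n = 5 and n = 6). Furin, a convertase that processes the A and B chains, had 138 ± 9.02 CPM with FSH and 153 ± 6.12 CPM with degarelix only, without overlap between the groups and with a log2 change of -0.15 ± 0.06 (adjusted p = 0.144). Cspg4, the mural proteoglycan NG2 that binds the A chain, had a log2 change of -0.26 ± 0.13 (adjusted p = 0.253), and Lrp1, an endocytic receptor that associates with the beta receptor, had -0.21 ± 0.11 (adjusted p = 0.295). A2m, a carrier of the B chain, was at 0 counts in every library.

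Adaptors and effectors downstream of the receptors had 0 genes called of 28 tested in edgeR's test, and their log2 changes had a median of -0.043 (ranging, by which rat was left out, from -0.085 without FSH replicate 2 to -0.020 without degarelix only replicate 6), and 9 of them had an unadjusted p under 0.05. That is a larger share than the 22.6% of all genes, and none of the 9 passed adjustment. Among the 9, Fyn was higher with FSH (log2 change 0.26 ± 0.12) and the others were lower. Akt2, Crk and Pik3cb were among the nearest to the threshold. Akt2, a kinase of the insulin and PDGF routes, had 220 ± 45.5 CPM with FSH (SD, n = 5) and 309.8 ± 30.9 CPM with degarelix only (SD, n = 6), a log2 change of -0.50 ± 0.13 with an adjusted p of 0.0620. Crk, an adaptor, had -0.35 ± 0.09 (adjusted p = 0.0632) and Pik3cb, a catalytic subunit of PI 3-kinase, had -0.50 ± 0.15 (adjusted p = 0.0955). With 1 rat left out, the adjusted p of Akt2 ran from 0.0351 without FSH replicate 4 to 0.136 without FSH replicate 1, and that of Crk from 0.0417 without FSH replicate 4 to 0.142 without FSH replicate 5. Akt1 (0.04 ± 0.05) and Pik3ca (0.04 ± 0.06), close relatives of Akt2 and Pik3cb, gave small values; the difference between relatives was not tested.

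Brakes on the receptors had 0 genes higher and 1 lower of 17 tested, and their log2 changes had a median of 0.063 (ranging, by which rat was left out, from 0.0031 without degarelix only replicate 1 to 0.085 without FSH replicate 1). The gene that fell was Ptpn1 (ENSRNOG00000010574), the phosphatase PTP1B that acts on PDGF and insulin receptors. It had 12.4, 11.7, 15.7, 13.5 and 10.2 CPM in FSH replicates 1 to 5 and 16.8, 15.7, 19.6, 19.3, 16.3 and 18.7 CPM in degarelix only replicates 1 to 6. The groups came close without overlapping, FSH replicate 3 lying just under degarelix only replicate 2. The log2 change was -0.49 ± 0.11 (adjusted p = 0.0430; over all alternatives 0.00159 to 0.103). With 1 rat left out, the call stood only without FSH replicates 3 or 4 or degarelix only replicate 4, and the adjusted p was 0.0512 to 0.103 without one of the others. Cblb, Spry2, Dusp6 and Acp1, further brakes of receptor signalling, had log2 changes of 0.22 ± 0.12, 0.17 ± 0.10, 0.20 ± 0.15 and -0.19 ± 0.11, none past the threshold (adjusted p = 0.288 to 0.459). With 1 rat left out, Cblb ran from 0.14 (without degarelix only replicate 1) to 0.28, Spry2 from 0.11 (without degarelix only replicate 1) to 0.24, Dusp6 from 0.061 (without FSH replicate 2) to 0.28, and Acp1 from -0.24 to -0.11 (without degarelix only replicate 1).

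Early response genes that growth factors induce had 0 of 14 called in edgeR's test (1 with an unadjusted p under 0.05), with a median log2 change of 0.18 that ran from -0.065 without FSH replicate 2 to 0.41 without degarelix only replicate 3. Ccn2, a matrix signalling protein, had 81.3 ± 10.3 CPM with FSH and 63.3 ± 12.4 CPM with degarelix only (log2 change 0.36 ± 0.14, adjusted p = 0.152), and Myc, a growth-promoting transcription factor, had 40.2 ± 9.41 CPM with FSH and 28.8 ± 8.79 CPM with degarelix only (log2 change 0.48 ± 0.22, adjusted p = 0.225). Egr2 had a log2 change of 0.86 ± 0.61, which was 0.11 without FSH replicate 3, and Fosl2 had -0.28 ± 0.25. The rats of a group differed several-fold for Fos, with SDs of 13.2 CPM around 19.1 with FSH and 23.1 CPM around 15.1 with degarelix only.

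Related growth factors and receptors had 0 of 13 called in edgeR's test (2 with an unadjusted p under 0.05), and their log2 changes had a median of 0.062 (ranging, by which rat was left out, from -0.0054 without FSH replicate 5 to 0.093 without FSH replicate 3). Vegfd, a lymphatic growth factor of the wider family that holds PDGF and vascular endothelial growth factor, had 30.6 ± 5.53 CPM with FSH and 44.2 ± 12.2 CPM with degarelix only (log2 change -0.53 ± 0.19, adjusted p = 0.131). Flt1 and Kdr, receptors of vascular endothelial growth factor, had 0.27 ± 0.09 (adjusted p = 0.105) and 0.17 ± 0.09 (adjusted p = 0.247), and Kitlg, the ligand of the Kit receptor, had 0.22 ± 0.10 (adjusted p = 0.221).

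**Figure D4:**
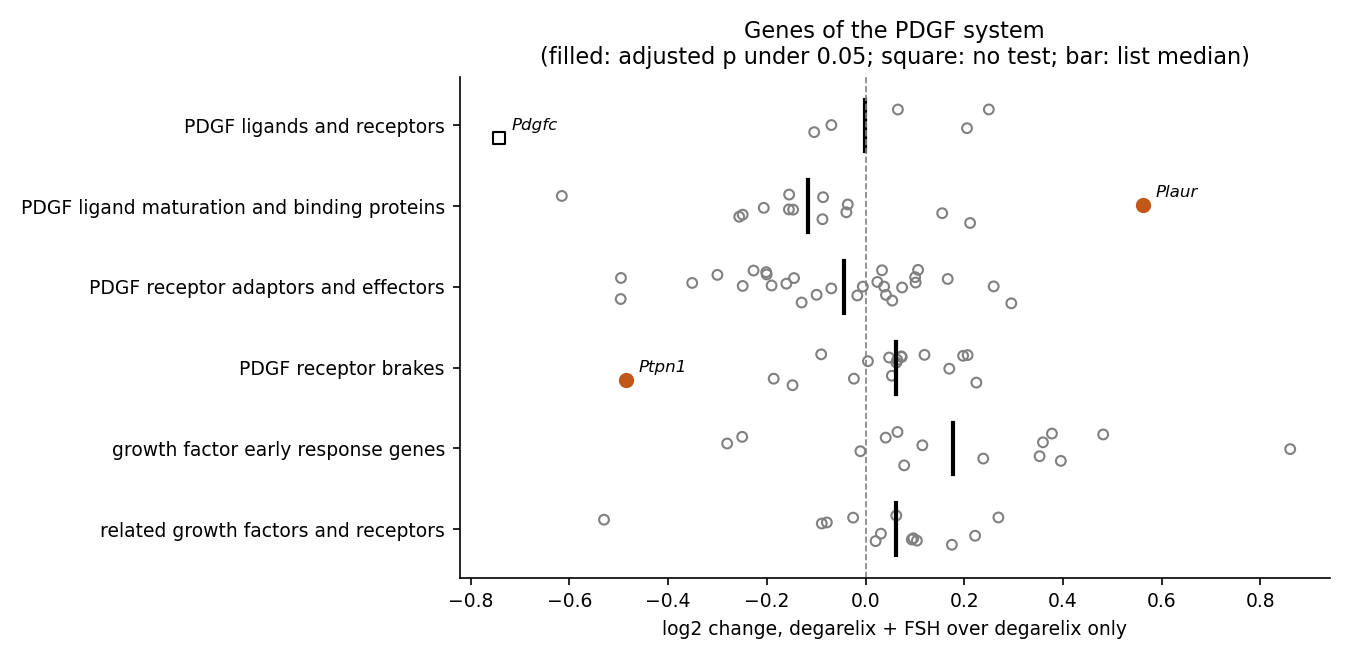
Log2 change, degarelix plus FSH over degarelix only (x axis), of each tested gene of the family and of the 5 lists of PDGF-related genes (rows); filled points passed an adjusted p of 0.05 over all genes in edgeR's test, the square is Pdgfc, shown without a test because its difference chose the family, and black bars are list medians. Plaur and Ptpn1 are the filled points, and the list medians lie between -0.12 and 0.18.

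Markers of the cells that make or sense PDGF were summed per rat. Endothelial markers, the cells that supply Pdgfb, summed to 1800 to 2878 CPM with FSH and 1581 to 2111 CPM with degarelix only, with a median log2 change of 0.32 (0.21 to 0.38 with 1 rat left out). All 10 markers tested had a positive log2 change, 7 had an unadjusted p under 0.05 beside 22.6% of all genes, and 1 was called higher (Tek, log2 change 0.44 ± 0.10, adjusted p = 0.0431). With 1 rat left out, the call of Tek stood only without FSH replicate 4 or degarelix only replicates 3 or 4, and the adjusted p was 0.0661 to 0.106 without one of the others. Mural cell markers, the cells that carry Pdgfrb, summed to 1941 to 2469 CPM with FSH and 1739 to 2131 CPM with degarelix only, with 0 of 11 called, 2 at an unadjusted p under 0.05, and a median of 0.19 (0.13 to 0.29 with 1 rat left out). Pdgfb and Pdgfrb thus lay higher beside the listed markers of both cell types, and the part of cell content in their values was not tested. Cspg4, the mural proteoglycan kept in the ligand-binding list, went the other way, with a log2 change of -0.26 ± 0.13.

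Fibroblast and progenitor markers, the cells that carry Pdgfra, summed to 3978 to 6016 CPM with FSH and 3942 to 5616 CPM with degarelix only (0 of 10 called, median 0.17, and 0.040 without degarelix only replicate 3). Col1a2 was at 0.0743 to 0.601 CPM with FSH and 0.121 to 0.557 CPM with degarelix only, although Col1a1 reached 1507 CPM. Adipocyte markers summed to 37703 to 48335 CPM with FSH and 36259 to 45893 CPM with degarelix only (0 of 8 called, median 0.01, and -0.074 to 0.10 with 1 rat left out). That median joins 4 positive and 4 negative log2 changes, and 2 of the 8 had an unadjusted p under 0.05. Macrophage markers, cells known in mice to supply the C chain, summed to 224 to 471 CPM with FSH and 249 to 578 CPM with degarelix only (0 of 8 called, median 0.01, and -0.13 to 0.22 with 1 rat left out).

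Other cells that could have been in the samples were followed by their markers as well. Platelet markers, platelets being a store of PDGF, summed to 12.5 to 16.4 CPM with FSH and 10.1 to 18.7 CPM with degarelix only (0 of 2 tested called). Mesothelial markers summed to 15.1 to 26.4 CPM with FSH and 15.2 to 25.9 CPM with degarelix only (0 of 3), and lymphocyte markers to 3.06 to 9.62 CPM with FSH and 3.40 to 9.04 CPM with degarelix only (0 of 4). Skeletal muscle markers summed to 8.63 to 10.8 CPM with FSH and 7.39 to 13.7 CPM with degarelix only (0 of 1), and adrenal cortex markers to 54.4 to 63.6 CPM with FSH and 53.0 to 70.1 CPM with degarelix only (0 of 3). The ranges of these lists overlapped between the groups. Kidney tubule markers reached at most 0.120 CPM with FSH and 0 with degarelix only, with Umod, Slc34a1 and Aqp2 at 0 everywhere. Red blood cell markers summed to 557 to 2212 CPM with FSH and 209 to 1230 CPM with degarelix only (0 of 4). All 4 had a positive log2 change, with a median of 0.66, and 1 had an unadjusted p under 0.05. The highest sum was that of FSH replicate 4. Of the Schwann cell markers 0 of 4 were called.

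Whether members moved together from rat to rat was tested after each group's mean was removed, which takes out the difference that chose Pdgfc. None of the 15 pairs of members passed (15 correlations of log2 CPM over 11 rats, exact permutation within groups, Benjamini-Hochberg adjustment), and 0 had an unadjusted p under 0.05. The strongest was Pdgfc with Pdgfrb (r = 0.51, exact permutation p = 0.0976, adjusted p = 0.982; rho = 0.60, exact permutation p = 0.0846, adjusted p = 1; r = 0.48 without the 2 rats farthest from the median of Pdgfc). The pair of receptors, and the B chain with its receptor, were also weak. The receptors Pdgfra and Pdgfrb gave r = 0.28 (exact permutation p = 0.455, adjusted p = 0.982) and rho = 0.055 (exact permutation p = 0.921, adjusted p = 1), with r = -0.19 without the 2 farthest rats. Pdgfb with its receptor Pdgfrb gave r = 0.40 (exact permutation p = 0.304, adjusted p = 0.982) and rho = 0.27 (exact permutation p = 0.478, adjusted p = 1), with r = -0.43 without the 2 farthest rats, so that this relation rested on those rats. Over the degarelix only rats alone r was 0.53 for the pair of receptors and 0.58 for Pdgfb with Pdgfrb. Over the FSH rats alone both were negative.

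Against the marker lists, 0 of 30 pairs passed after adjustment and 1 had an unadjusted p under 0.05. That pair was Pdgfrb with the adipocyte markers, r = -0.69 (exact permutation p = 0.0166, adjusted p = 0.499) and rho = -0.67 (exact permutation p = 0.0465, adjusted p = 0.698), with r = -0.63 without the 2 farthest rats. The adipocyte mean weighs its genes equally and includes Pnpla2, at only 1.80 to 4.01 CPM with FSH and 2.25 to 3.34 CPM with degarelix only. The relation without Pnpla2 was not tested. Mural cells are where Pdgfrb is best known. Pdgfrb with the mural cell markers gave r = 0.56 (exact permutation p = 0.120, adjusted p = 0.559) and rho = 0.31 (exact permutation p = 0.413, adjusted p = 0.897), with r = 0.52 without the 2 farthest rats. Pdgfra with the fibroblast and progenitor markers gave r = 0.56 (exact permutation p = 0.154, adjusted p = 0.559) and rho = 0.49 (exact permutation p = 0.172, adjusted p = 0.897), with r = 0.37 without the 2 farthest rats. Both values join opposite signs. Over the degarelix only rats alone r was 0.82 for Pdgfrb with mural markers and 0.80 for Pdgfra with fibroblast and progenitor markers. Over the FSH rats alone both were negative. None of the pairings of a member with its best known cell type passed. Pdgfc with the macrophage markers gave r = -0.46 (exact permutation p = 0.169, adjusted p = 0.559). Its rho was -0.45 (exact permutation p = 0.210, adjusted p = 0.897), with r = -0.56 without the 2 farthest rats. Pdgfc with the adipocyte markers gave r = -0.63 (exact permutation p = 0.0632, adjusted p = 0.559). Its rho was -0.56 (exact permutation p = 0.109, adjusted p = 0.820), with r = -0.61 without the 2 farthest rats. Pdgfb with the endothelial markers gave r = 0.40 (exact permutation p = 0.165, adjusted p = 0.559) and rho = 0.27 (exact permutation p = 0.478, adjusted p = 0.897), with r = 0.47 without the 2 farthest rats.

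The relation of Pdgfc to the mural cell markers depended on single rats and on the group. Over all 11 rats r was 0.51 (exact permutation p = 0.0754, adjusted p = 0.559) and rho 0.67 (exact permutation p = 0.0465, adjusted p = 0.698), with r = 0.66 without the 2 rats farthest in Pdgfc. With 1 rat left out, r ran from 0.27 without degarelix only replicate 4 (exact permutation, adjusted p = 0.892) to 0.89 without FSH replicate 3 (exact permutation, adjusted p = 0.0382), and no other omission brought the adjusted p under 0.05. Over the degarelix only rats alone r was 0.95, whereas over the FSH rats alone it was weak. Whether the groups differ in this relation was not tested. These correlations used the mean of centred log2 CPM, in which each marker weighs the same. Between groups the values ran the other way. Pdgfc was lower with FSH, while the 11 listed mural markers had a median log2 change of 0.19. Summed CPM is another measure, to which Mcam gave 1146 CPM with FSH and 1077 CPM with degarelix only. The sums averaged 2252 ± 283 CPM with FSH (SD, n = 5) and 1997 ± 137 CPM with degarelix only (SD, n = 6). Degarelix only replicate 4 was lowest by the mean (-0.58) but had a sum of 2085 CPM.

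**Figure D5:**
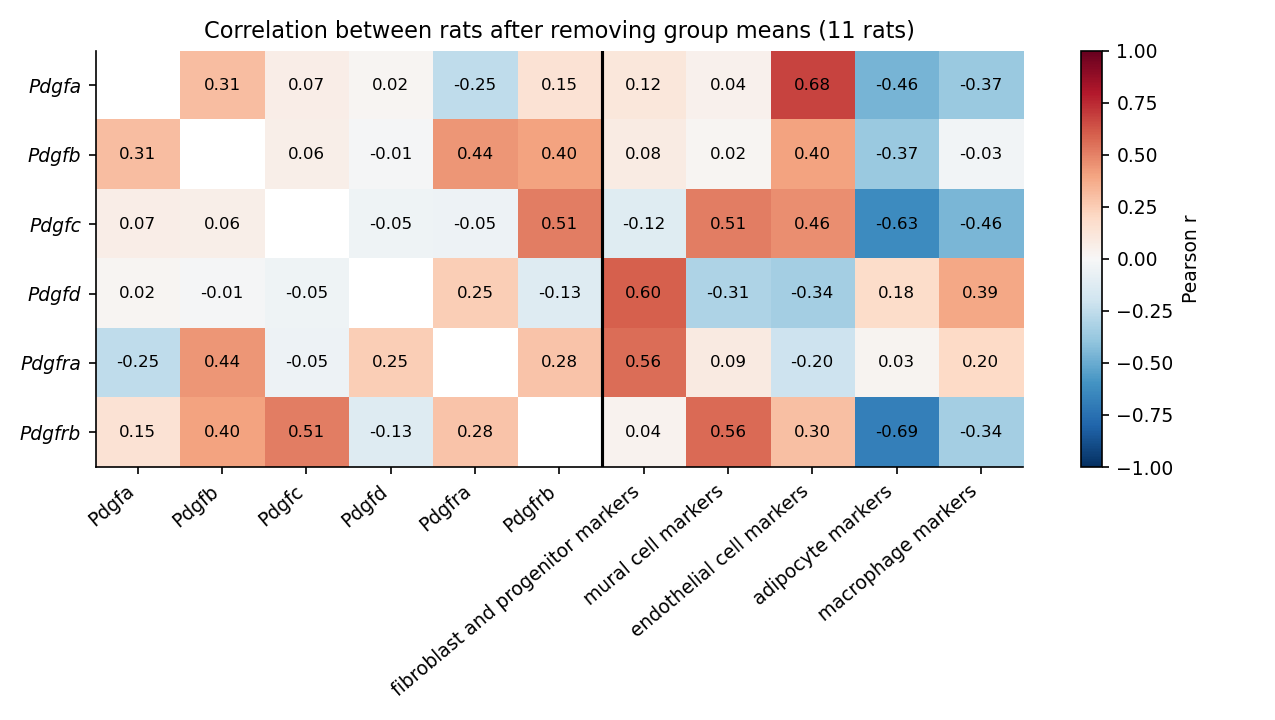
Pearson r between rats (colour and printed value, 11 rats) of log2 CPM after each group's mean was removed, for pairs of PDGF genes (left block) and for PDGF genes against the mean of 5 marker lists (right block). Values run from -0.69 for Pdgfrb with adipocyte markers to 0.68 for Pdgfa with endothelial markers, and none passed after adjustment.

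The genes whose rat-to-rat pattern was most like each member were looked up among 11425 others with a mean of at least 1 CPM. Since they were picked as the highest r of so many, the values are a description over 11 rats with group means removed. For Pdgfc they included Pcbd2 (r = 0.96, rho = 0.89) and Ndufb4, a subunit of respiratory complex I (r = 0.93, rho = 0.85). Their own log2 changes with FSH were 0.15 ± 0.07 and 0.0002 ± 0.12, neither past the threshold. For Pdgfb they were the kinase gene Bmx (r = 0.92, rho = 0.78), Msl2 (r = 0.90, rho = 0.89) and Phf21a (r = 0.90, rho = 0.85). For Pdgfa they were Traf2 (r = 0.95, rho = 0.85), Pygo2 (r = 0.87, rho = 0.85) and Smarcd3 (r = 0.87, rho = 0.75). For Pdgfd they were the cell cycle kinase Wee1 (r = 0.94, rho = 0.93), Dtymk (r = 0.90, rho = 0.89) and the mast cell chymase Cma1 (r = 0.89, rho = 0.75). For Pdgfra they were Rnf2 (r = 0.91, rho = 0.75), the histone demethylase Kdm6b (r = 0.90, rho = 0.82) and Scaf8 (r = 0.90, rho = 0.93). For Pdgfrb they were Izumo4 (r = 0.96, rho = 0.93), the histone chaperone Asf1a (r = 0.96, rho = 0.93) and the adenylyl cyclase Adcy3 (r = 0.93, rho = 0.85). No member appeared among the likest genes of another.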

How the data were processed

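The deposited table holds whole-number counts per Ensembl gene, not normalized, with 1 column per rat, as its values show. The submitters' processing notes name STAR, edgeR, DESeq2 and rn6, without roles or versions. Nothing in the sources used here states the counter, annotation release or strand setting, so overlapping or near-identical genes can share counts. Columns were assigned by names that match the labels. Of 25275 rows, 1 (Pcmt1) was left out because a cell holds a letter, and filterByExpr kept 12846 genes. No 2 libraries agreed within sampling noise (lowest chi-square per degree of freedom 21.3).

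The comparison was fitted over all genes with edgeR 4.0.16 in R 4.3.3 (TMM, robust quasi-likelihood F test, group only, Benjamini-Hochberg, threshold 0.05). SEs and 95% intervals come from that test. Differences are degarelix plus FSH minus degarelix only. Correlations used log2 CPM (prior count 2) centred on group means, with every order within groups enumerated (scipy 1.17.1); all tests were two-sided. The fit and the correlation step were tested on simulated data.

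Members and lists were chosen with earlier results of these data known. Of 187 listed symbols, 177 matched directly, 4 through older names in RefSeq's GRCr8 table, 5 were not matched and 1 (Grb2) stood on several rows. Genes named are the members, list genes past the threshold, up to 4 further genes of smallest p per list, and the 3 likest genes of each member. Plau, Plat, Akt1, Pik3ca, Fyn, Fos, Adipoq, Pnpla2, Mcam, Col1a1, Col1a2 and genes at 0 were singled out after their values were seen. A few genes that these rules pick are not reported here. Alternatives were other scalings (RLE, upper quartile), other filters, DESeq2 1.42.0, limma-voom (limma 3.58.1), the replicate number as a block, each library left out, and for correlations RLE factors, a prior count of 0.5 and the degarelix only rats alone.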

Additional observations from a re-analysis of the deposited data

Results flagged for a closer look

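Within groups of 5 or 6 rats, 56 sets of values were searched for a rat whose gap to the nearest of the others was large against the range of its group, and 6 were found; chance gives about 1 in 20. None concerned a PDGF gene or a ratio between PDGF genes. The Schwann cell marker sum was 8086 CPM in FSH replicate 3, against 96.4 to 122.7 CPM in the other FSH rats. Red blood cell markers summed to 2212 CPM in FSH replicate 4, against 557 to 839 CPM in the other FSH rats. Among degarelix only rats, replicate 3 was high for the endothelial receptor gene Tek (118.7 CPM, others 90.3 to 100.1 CPM) and low for the sum of mural cell markers (1739 CPM, others 1993 to 2131 CPM). Macrophage markers summed to 578.1 CPM in degarelix only replicate 4 (others 248.5 to 365 CPM), the rat with the lowest Pdgfc of its group, and lymphocyte markers summed to 9.04 CPM in degarelix only replicate 5 (others 3.40 to 5.33 CPM). The part of these rats in the differences was not tested beyond leaving each out.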

How the results depend on the processing

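Over 18 alternatives of the fit, 11 of them leaving out a rat, the log2 change of Pdgfc stayed between -0.81 and -0.65. The count of members called, from which nothing is read because Pdgfc chose the family, was 1, and 0 to 1 with a rat left out (0 without FSH replicate 2 or degarelix only replicate 1). Genes called over all numbered 292 in edgeR's test, 1128 with DESeq2 and 30 (without FSH replicate 2) to 551 (without FSH replicate 4) with a rat left out, above 292 only without FSH replicate 4 or degarelix only replicate 4 (532) and below 292 without any other; without FSH replicate 3 they numbered 92, of which 84 were among the 292. The 2 calls in the pathway lists became 8 with DESeq2 and 0 to 6 with a rat left out. Of 522 values for 29 named genes, 484 kept direction and side of the threshold, 28 lost a call, 9 gained one and 1 changed direction, Pdgfa at 0.0056 without FSH replicate 4 (range -0.17 to 0.0056 with a rat left out). Correlations with markers past adjustment numbered 0, and 0 to 1 with a rat left out, the exception being Pdgfc with mural markers without FSH replicate 3 (r = 0.89, against 0.27 without degarelix only replicate 4); between members the count was 0 throughout. With the replicate number as a block, 14 genes, 0 members and 0 pathway genes were called. The numbers are not known to pair the rats: deviations of same-numbered rats correlated at -0.11 to 0.13, and 0 of 5 FSH rats correlated best with their own number. Causes were not tested. Depth limits genes of low level such as Fosl2, at 2.23 ± 0.872 CPM with FSH and 2.72 ± 0.553 CPM with degarelix only. The p-values weigh a difference or a correlation only against the spread between these rats.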
